A study of Mus musculus with 2 samples.

Results

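The genes described here are the Zfp36 family (Zfp36, Zfp36l1 and Zfp36l2) and the Mex3 family (Mex3a, Mex3b, Mex3c and Mex3d), 7 of 21887 protein-coding genes on the assembled mouse chromosomes. They were chosen by name, with earlier results of these data known. Among those results, the scores of Zfp36l2 and Mex3b were near the top of the ARID4B list. The scores and counts of the 7 genes are therefore given as a description and no test is made of them. Around these 7 genes every ARID4B interval that overlapped the gene record or lay within 50 kb of it was read, which gave 23 of the 6632 intervals in the list. The data are 1 ARID4B chromatin immunoprecipitation (ChIP) library and 1 input library, both from a pool of 108 testes of wild type male mice at postnatal day 1.5, of a hybrid C57BL6/J and 129/SvEv strain kept on standard chow. The ChIP library was made with an anti-ARID4B antibody and the input library with none. There was 1 library of each kind from pooled animals, so none of the values is replicated, and the number of reads behind an interval is not known here. Testes were not separated into cell types and the list holds no expression, so the tissue label was not checked against marker genes and no interval can be given to a cell type.

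ZFP36 proteins bind AU-rich elements in the 3' untranslated regions of messages through a tandem pair of CCCH zinc fingers and bring in the CCR4-NOT deadenylase, so that the message is shortened and destroyed. Zfp36 encodes tristetraprolin, which restrains Tnf and other inflammatory messages and is itself induced as an immediate early gene, and Zfp36l1 and Zfp36l2 encode its relatives, needed in mouse for embryonic development and for blood cell and oocyte development. MEX3 proteins bind RNA through KH domains and carry a RING finger of the ubiquitin ligase type. They are named after MEX-3 of the worm Caenorhabditis elegans, which sets cell fates in the early embryo by repressing maternal messages, and mouse Mex3b is known for a role in the organisation of Sertoli cells, the supporting cells of the seminiferous tubule. ARID4B is a chromatin protein of SIN3-histone deacetylase complexes.

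Each of the 7 genes had an ARID4B interval over its own record, as did 29.6% of all protein-coding genes. The highest score at a record end was 1760.61 at Zfp36l2, 1245.12 at Mex3b, 498.72 at Mex3d, 416.01 at Mex3c, 403.34 at Zfp36, 224.73 at Zfp36l1 and 117.8 at Mex3a. The score is the authors' own value for each interval, used here to rank intervals, on a scale that no source used here states, and its median over the list was 125.0. By rank in the list of 6632 these were 1, 7, 118, 214, 234, 1098 and 3588 in the same order of genes. At record ends, 5 of the 7 thus lay in the first 5% of the list and Mex3a below its middle. Both statements depend on that limit. Anywhere in the record, the best interval ranked 302 (4.55% of the list) for Zfp36l1 and 1904 (28.71%) for Mex3a. Having an interval within 1 kb of a record end was common among protein-coding genes, at 27.1% of 21887, but an interval from the first 5% of scores lay there at only 1.59% of them, and one from the first 1% at 0.315%. The median best score was 416.01 over the 7 genes and 132.24 over the 5930 protein-coding genes with an interval at an end. Since the genes were chosen with such scores in view, nothing is read from these differences.

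**Figure D1:**
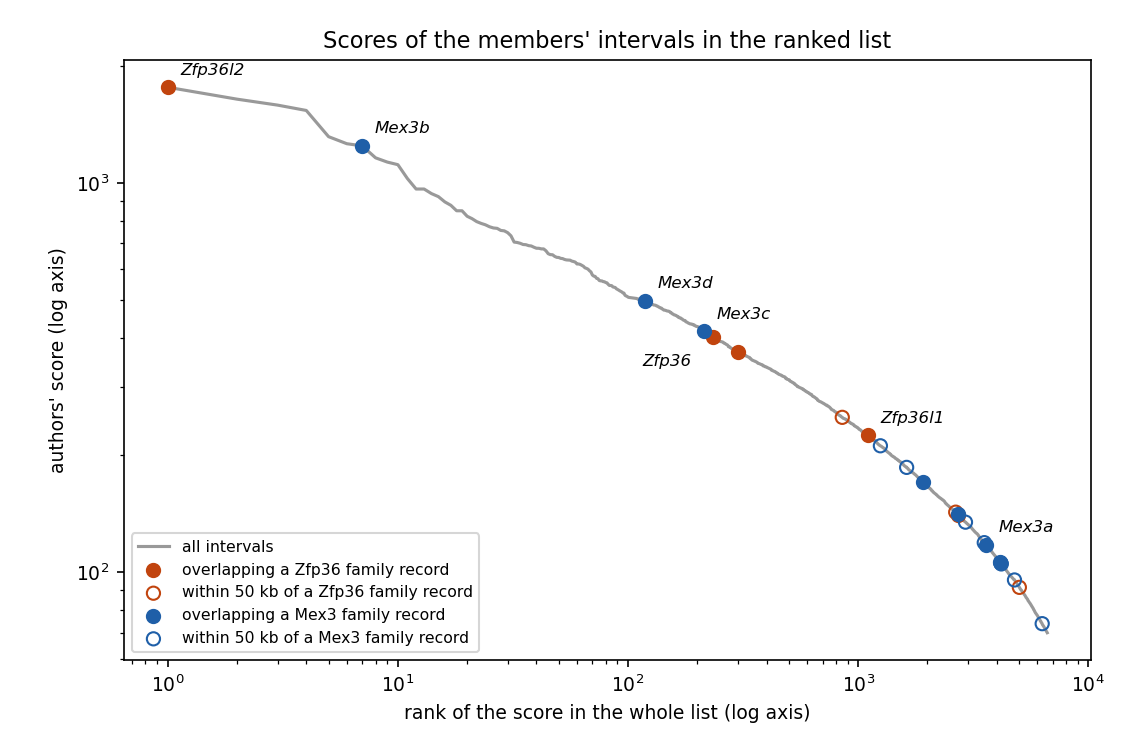
Authors' score against rank in the whole list, both on log axes, for all 6632 intervals (gray line), for intervals overlapping a member's record (filled points) and for those within 50 kb of one (open points). Gene names mark the best interval at a record end; Zfp36l2 and Mex3b stand at ranks 1 and 7 and Mex3a at rank 3588.

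Within the Zfp36 family, Zfp36l2 stood far above its relatives. Its main interval, 2443 bp wide at chr17:84184950-84187392 (mouse build GRCm38, as for all positions here), scored 1760.61, against 403.34 at Zfp36 and 368.56 for the best of Zfp36l1 anywhere in its record. The next score in the whole list was 1641.15. This interval lay inside the 4024 bp record (chr17:84183924-84187947), from 1026 bp above its lower end to 555 bp below its upper end. A second interval, chr17:84187466-84188955 with a score of 140.49, began after a gap of 73 bp and ran 1008 bp past the upper end of the record. It reached into the record of the long noncoding RNA gene Gm36279, whose end lies 97 bp from that of Zfp36l2. The strand of Zfp36l2 is not in the tables used here, so its start of transcription is not placed. No other interval lay within 228.4 kb of the gene.

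Zfp36, on the minus strand, had 3 intervals nearby. The one over the gene was 2187 bp wide (chr7:28377361-28379547, score 403.34, rank 234), covered the start of transcription at the upper end of the record and ended 319 bp before that start, outside the record. A weaker interval of 878 bp (score 91.56) lay 2173 bp beyond the same end and reached no gene end. The other, with 250.16, lay 4000 bp beyond the opposite end and covered the listed start of the neighbouring gene Plekhg2 and lay within 1 kb of a tRNA gene. Whether it bears on Zfp36 was not tested.

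Zfp36l1, also on the minus strand, carried its signal in pieces. The higher score, 368.56 (chr12:80109540-80110986, rank 302), was inside the record and over 1 kb from either end. The next interval began 47 bp further on (chr12:80111034-80112971, score 224.73, rank 1098) and stopped 42 bp short of the start of transcription. Another interval of 142.81 lay 1919 bp upstream of the record, within that of the protein-coding gene model Gm52006, and the interval of 224.73 lay within 1 kb of the lower end of that model's record. The start of Zfp36l1 was therefore flanked by intervals and not covered by one.

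In the Mex3 family, Mex3b had the strongest and the widest interval. It ran over 5027 bp (chr7:82865463-82870489, score 1245.12), the 6th widest of the list, from 1870 bp before the start of transcription to 1087 bp short of the other end of the 4244 bp record. It was the only interval within 50 kb and the next one lay 218.4 kb away. No other protein-coding gene lies within 50 kb of Mex3b. The interval also covered the end of the record of a minus-strand long noncoding RNA gene, Gm36584, which lies 37 bp from the start of Mex3b.

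Mex3c, which encodes a ubiquitin ligase and RNA-binding protein and lies on chromosome 18, likewise had a single interval within 50 kb. It was 1200 bp wide and scored 416.01, beginning 611 bp inside the lower end of a record of 19942 bp. Divided by width, its score was 346.7 per kb, which ranked 38 in the list, against 720.7 per kb and rank 1 for Zfp36l2 and 247.7 per kb and rank 250 for Mex3b. Scaled by width, Mex3b stood lower and Mex3c higher in the list than by score. The median over all intervals was 121 per kb.

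Mex3d had its best interval inside the upper end of its record (chr10:80385077-80387360, score 498.72, rank 118). A further one of 105.65 lay 37 bp beyond that end, overlapping the record of the long noncoding RNA gene Gm30823, and 140.91 was found near the opposite end (chr10:80381141-80382517). Mex3d was the one gene of the 7 with separate intervals within 1 kb of each end. As its strand is not in the tables used here, which end is the start is not stated.

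Mex3a had the weakest signal of the 7 genes. Of 3 intervals over the record, 106.68 (chr3:88531262-88532180) covered the start of transcription and 117.8 (chr3:88532377-88533303) followed after 196 bp. The first of them also covered the start of Gm38618, a long noncoding RNA gene that begins on the other strand 66 bp away. The best score, 170.8 (chr3:88536034-88537274, rank 1904), lay inside the record with its midpoint 4708 bp downstream of the start. It spanned the microRNA gene Mir1905, annotated on the opposite strand. The mature sequence of that microRNA in RefSeq (GRCm38.p6, chr3:88536311-88536332, minus strand) is shown because its gene is the one annotated feature under the best Mex3a interval, with the seed, bases 2 to 8, in capitals. Its own transcription was not measured.
mmu-miR-1905: cACCAGUCccaccacgcgguag

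**Figure D2:**
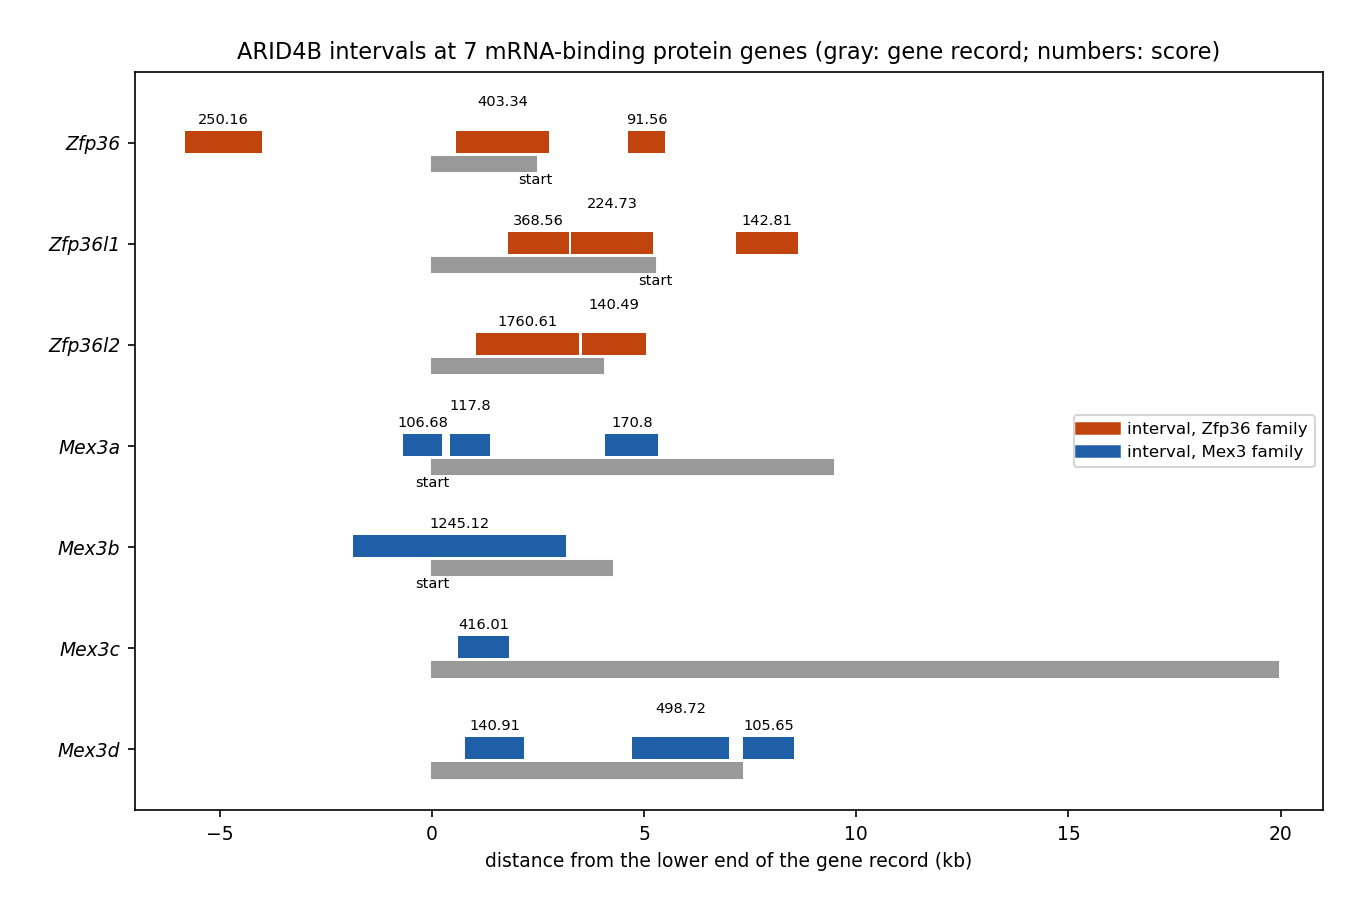
Intervals near each gene, to scale, as distance in kb from the lower end of the gene record (gray), with the authors' score above each and the start of transcription marked for the 4 genes where it is listed. Zfp36l1, Zfp36l2, Mex3a and Mex3d each carry a pair of intervals separated by 47 to 327 bp, and Mex3b carries 1 interval of 5027 bp.

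Some intervals of these genes came in close pairs. Of the 23 intervals, 8 (34.8%) had a neighbour at most 500 bp away, as had 7.95% of all intervals. They were a pair each at Zfp36l1, Zfp36l2, Mex3a and Mex3d, with gaps of 47, 73, 196 and 327 bp. The genes were chosen with scores of the list in view, so nothing is read from this contrast with all intervals. The records of the 7 genes are between 2445 and 19942 bp long. Among the 9266 protein-coding genes with records of 2 to 20 kb, 26.6% had an interval at an end, 2.31% had 2 or more intervals over the record, 0.302% had 3 or more over it and 1.12% had 3 or more over the record or within 5 kb. Of the 7 genes, 4 had 2 or more over the record, 1 (Mex3a) had 3, and 4 had 3 or more when the flanking 5 kb was added. The shares are over all genes of that size, most with no interval over the record. Each of the 7 had one, so nothing is read from these differences. Intervals covered 76.4% of the Zfp36 record, 74.4% of Mex3b, 72.7% of Zfp36l2, 64.4% of Zfp36l1, 50.2% of Mex3d, 25.4% of Mex3a and 6.0% of Mex3c. Coverage of 50% or more was found at 5.08% of the 2560 genes of that size with an interval over the record, whose median was 10.2%. Coverage comes from the same intervals as the scores, so nothing is read from it.

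**Figure D3:**
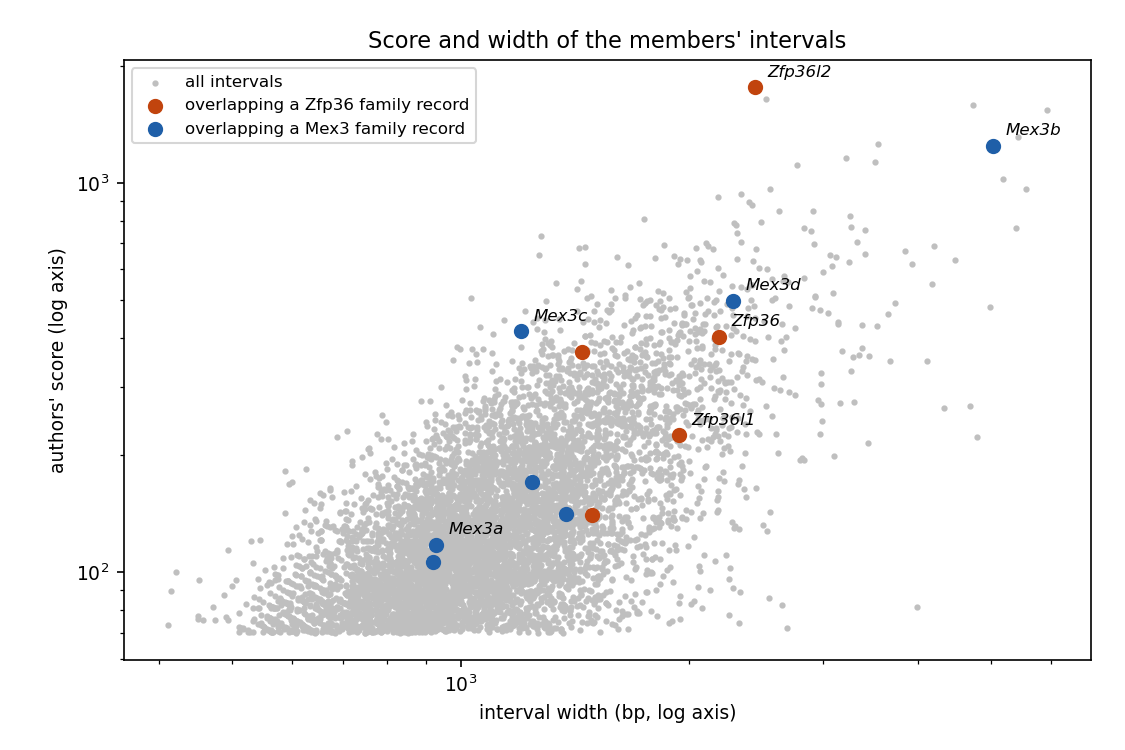
Authors' score against interval width in bp, both on log axes, for all intervals (gray) and those overlapping a member's record (colored; names at the best interval at a record end). Zfp36l2 has the highest score at a width of 2443 bp, and Mex3b lies among the widest at 5027 bp.

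Promoter sequence was available in the RefSeq table (GRCm38.p6) for 4 of the 7 genes, Zfp36, Zfp36l1, Mex3a and Mex3b. The 250 bases before the start are printed 5' to 3' because the intervals lay over or beside them, with capitals for matches to any of 7 motifs. The windows are chr7:28379229-28379478 (minus strand) for Zfp36, chr12:80113014-80113263 (minus strand) for Zfp36l1, chr3:88531696-88531945 (plus strand) for Mex3a and chr7:82867083-82867332 (plus strand) for Mex3b.
Zfp36: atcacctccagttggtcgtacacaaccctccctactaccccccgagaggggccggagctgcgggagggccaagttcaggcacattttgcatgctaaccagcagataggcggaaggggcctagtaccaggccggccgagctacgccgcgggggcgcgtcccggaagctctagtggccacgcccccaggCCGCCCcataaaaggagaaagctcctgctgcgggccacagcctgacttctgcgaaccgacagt
Zfp36l1: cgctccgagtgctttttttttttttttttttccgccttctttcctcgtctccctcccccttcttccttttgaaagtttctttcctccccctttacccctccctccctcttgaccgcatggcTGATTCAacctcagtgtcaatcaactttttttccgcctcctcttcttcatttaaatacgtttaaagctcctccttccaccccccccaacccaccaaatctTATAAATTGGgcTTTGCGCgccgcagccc
Mex3a: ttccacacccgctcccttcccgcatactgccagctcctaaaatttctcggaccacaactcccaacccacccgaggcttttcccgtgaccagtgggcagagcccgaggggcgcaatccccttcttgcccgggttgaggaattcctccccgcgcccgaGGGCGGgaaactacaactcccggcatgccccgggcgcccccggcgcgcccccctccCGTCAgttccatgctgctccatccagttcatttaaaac
Mex3b: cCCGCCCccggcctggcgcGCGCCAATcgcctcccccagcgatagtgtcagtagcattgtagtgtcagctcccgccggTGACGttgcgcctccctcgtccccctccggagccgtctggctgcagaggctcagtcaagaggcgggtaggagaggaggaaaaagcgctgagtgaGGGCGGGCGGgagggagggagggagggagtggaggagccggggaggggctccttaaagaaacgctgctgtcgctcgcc

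The intervals contained the whole 250 bases of Zfp36, Mex3a and Mex3b, and none of the bases printed for Zfp36l1. Below, a promoter window counted as reached when an interval overlapped the stretch from 250 bp before the start to 50 bp after it. By that count Zfp36l1 was reached as well, though only within the 50 bp after its start. Over all protein-coding genes with a listed start, 24.3% had an interval covering one, and 82.2% did among those with an interval at a record end. The midpoint of the best interval at an end lay 774 bp downstream of the start at Zfp36, 1010 bp at Zfp36l1, 894 bp at Mex3a and 643 bp at Mex3b. The median over 3860 genes with 1 listed start was 216 bp downstream (quartiles 47.4 and 414 bp). After intervals at most 500 bp apart were merged, an alternative added after the data were seen, the midpoint lay at 774 bp for Zfp36, 1758 bp for Zfp36l1, 336 bp for Mex3a and 643 bp for Mex3b, against quartiles of 48 and 416 bp over all such genes.

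The 4 sequences were unlike in base composition. CG dinucleotides numbered 22 in Mex3b, 19 in Mex3a, 18 in Zfp36 and 10 in Zfp36l1, against a median of 10 over 21263 promoter windows of protein-coding genes and of 20 over the 5091 windows that an interval reached. The share of G and C was 68.4% in Mex3b, 64.8% in Zfp36, 64.0% in Mex3a and 48.4% in Zfp36l1, against medians of 55.6% over all windows and 64.8% over those reached. The ratio of CG pairs observed to those expected from the base composition was 1.01 in Zfp36l1, 0.82 in Mex3a, 0.77 in Mex3b and 0.69 in Zfp36, against medians of 0.53 over all windows and 0.82 over those reached. A search on both strands found the GC box GGGCGG in Mex3b (3 matches, 2 of them overlapping), in Mex3a (1) and in Zfp36 (1). The GC box occurs in 42.6% of all windows and in 70.7% of those reached. Zfp36l1 had no GC box, but had the TATA box TATAAA (11.6% of all windows, 4.62% of those reached), overlapping a CCAAT match (35.4% and 32.4%). It also had 1 match each to the AP-1 site TGANTCA (6.13% and 3.04%) and the E2F core TTNGCGC (6.56% and 11.7%). Mex3b held a CCAAT match that overlaps an E2F core match, and a CRE core TGACG (20.2% and 29.7%), which Mex3a also had. The E-box CACGTG (6.63% and 10.1%) was in none of the 4. These letters are a description of the windows and not binding sites.

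A long noncoding RNA gene began or ended within 1 kb of a record end at 4 of the 7 genes, Zfp36l2, Mex3a, Mex3b and Mex3d, at distances of 97, 66, 37 and 109 bp. This held for 9.90% of all protein-coding genes and for 13.9% of those with an interval at an end. Genes with such a neighbour had an interval at an end in 38.1% of 2167 cases, and genes without one in 25.9% of 19720. The measure uses annotation only and no score, but with 7 genes chosen for other reasons no test of it was made. At Mex3a, where the start of Gm38618 lies 66 bp away under the same interval, signal at either start cannot be told apart.

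The 12 intervals overlapping a record had a median score of 297 and the 11 outside one a median of 119, with 5 of the 11 above the list median of 125.0 and none above 250.16. Only 7 of the 23 intervals lay more than 5 kb away, all around Mex3a and Mex3d, whose surroundings hold 5 and 6 other protein-coding genes within 50 kb. Near Mex3a they were at an end of Lmna (134.61), the lamin A/C gene, at a listed start inside Lmna (119.26), and between Lamtor2 and Ubqln4 (211.45). Near Mex3d they were at Pcsk4 and Reep6 (95.65, with the noncoding Gm51809), inside Adamtsl5 (105.16), at a start of Adamtsl5 (73.87) and at Tcf3 (186.1), which encodes an E protein transcription factor. At Zfp36l1, Zfp36l2, Mex3b and Mex3c no further interval was found within 100 kb beyond those within 5 kb. The median number within 50 kb was 2 for protein-coding genes with an interval at an end, and 1 or more was found for 52.3% of all protein-coding genes. The intervals just inside the 50 kb limit were at 49634 bp from Mex3d (95.65) and 49075 bp from Mex3a (134.61), and those just outside at 56.2 kb from Mex3d (97.15) and 64.4 kb from Zfp36 (96.17).

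**Figure D4:**
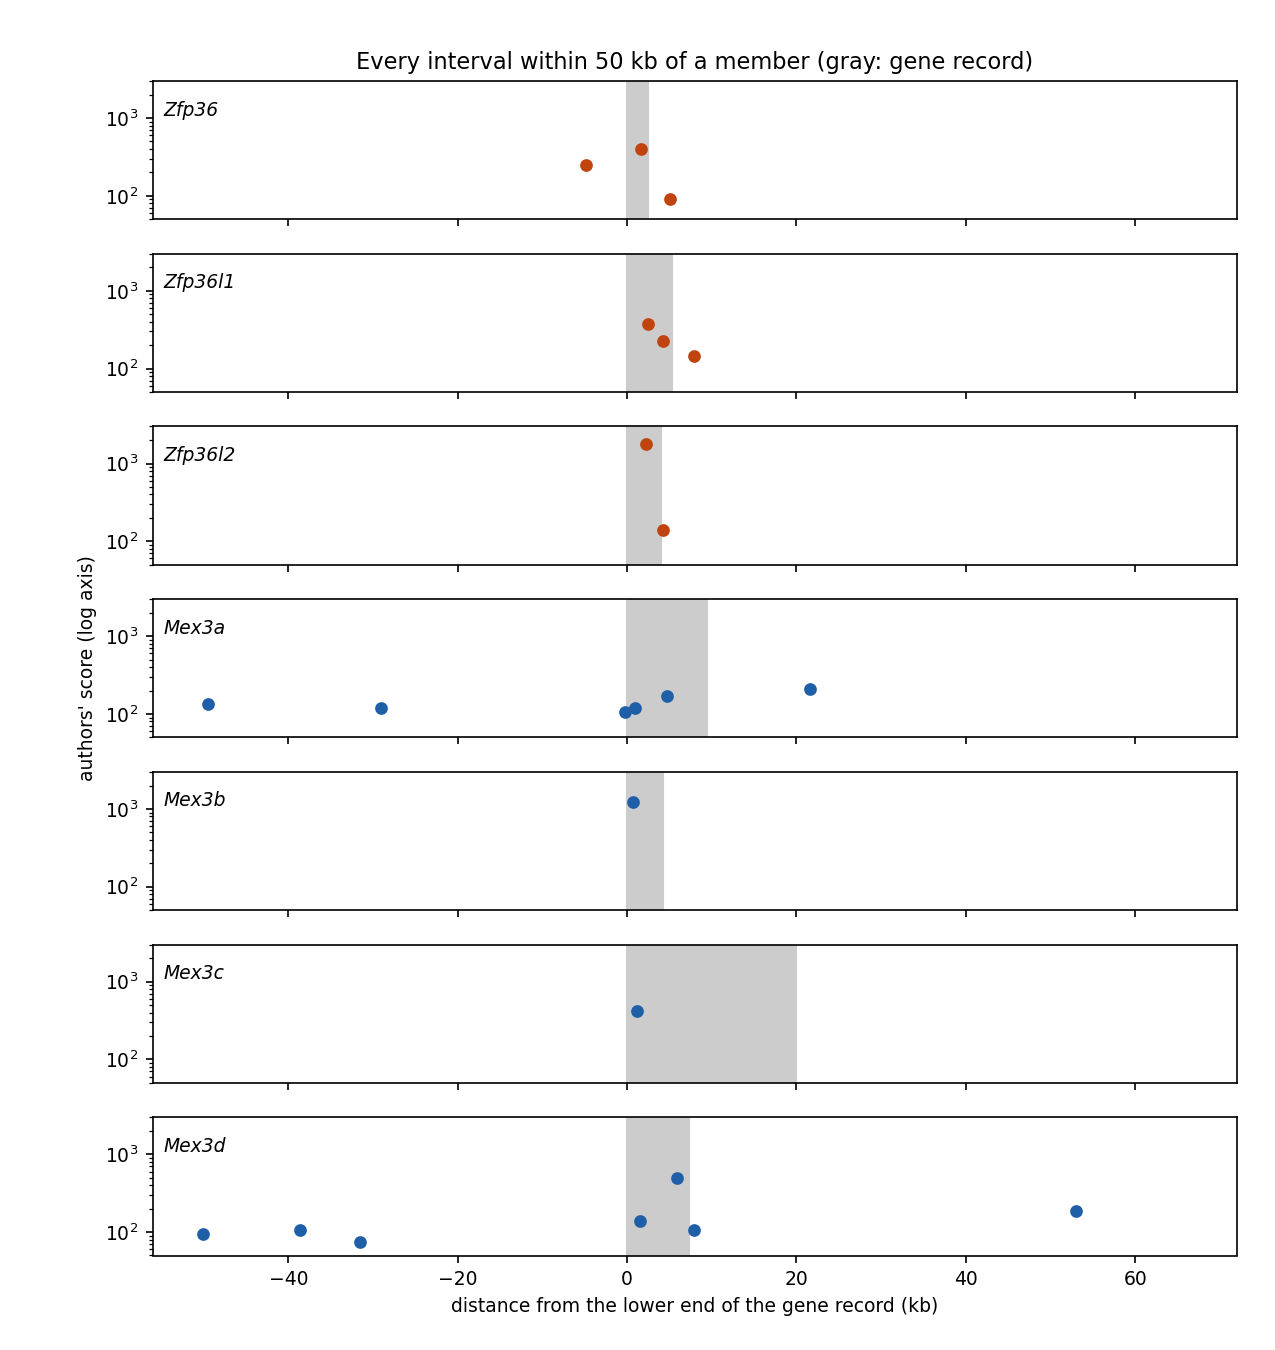
Authors' score (log axis) of every interval within 50 kb of each gene, plotted at its midpoint as distance in kb from the lower end of the gene record (gray). Signal is at the record itself in each panel, and only Mex3a and Mex3d have intervals more than 5 kb away.

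By score and width together, the intervals most like that of Zfp36l2 were at Irf2bp2 (1641.15, 2523 bp), Gata6 (1114.18, 2775 bp) and inside Ptch1 (1261.13, 3547 bp), at distances of 0.11, 0.69 and 0.72 in log2 units. Those most like Mex3b were the interval shared by Brd2 and H2-DMa (1314.68, 5422 bp), that of Ptma (1026.46, 5190 bp) and that of Hic1 and Smg6 (1584.47, 4730 bp), at 0.13, 0.28 and 0.36. Likeness here is over a single library. Zfp36l3, an X-linked relative of the Zfp36 genes found in rodents, had no interval, and the nearest lay 2.09 Mb away on a chromosome with 29 intervals in all. Among 34 families of protein-coding genes whose symbols share a stem and end in a, b, c and d, Mex3 was the one in which all 4 members had an interval at an end. In 10 families no member had one, in 10 a single member, in 11 there were 2, and in Vps13 and Vps37 there were 3. The number of families with an interval at all 4 was 0 with windows of 500 bp, with midpoints and with scores above the median. It was 2 when an interval anywhere in the record counted. Mex3 dropped out through Mex3c with windows of 500 bp and with midpoints, and through Mex3a with scores above the median. The family was chosen with the score of Mex3b already known, so nothing is read from its place among the 34.

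The machinery that ZFP36 proteins work with carried intervals too. Of 22 genes for the CCR4-NOT and PAN deadenylases and their TOB and BTG adaptors 12 (54.5%) had an interval at an end, against 27.1% of all protein-coding genes. The best were at the CCR4-NOT subunits Cnot2 (334.11) and Cnot3 (283.57) and at the adaptors Tob1 (287.48) and Btg1 (244.71). Cnot4, Cnot6l, Cnot7 and Cnot8 had none at an end, though 2 intervals overlapped the record of Cnot6l and 1 that of Cnot7. Of 29 genes for decapping, 5' to 3' decay and the exosome 15 (51.7%) had one, led by Exosc6 (503.68, shared with Aars and Gm38523), the helicase gene Ddx6 (314.65), Exosc8 (266.62, shared with Alg5) and Exosc10 (221.47, shared with Mtor), while Dcp1a, Dcp2, Edc3 and Edc4 had none. Of 16 genes for kinases of the p38-MK2 path, 14-3-3 proteins and phosphatases that control ZFP36 proteins 9 (56.2%) had one, at most 217.12 for Ywhab, with Mapkapk2 (203.34), Ppp2ca (185.31) and Mapk14 (177.84, shared with Slc26a8) next. Mapk11, Map2k3, Map2k6 and Mapkapk3 had none. Among genes with an interval at an end, the median best score was 206.8 for the deadenylase and adaptor list. It was 131.07 for the decapping, decay and exosome list and 126.0 for the kinase, 14-3-3 and phosphatase list. Over all protein-coding genes with an interval at an end it was 132.24. The comparison is with genes expressed in testis or not, so nothing particular to these lists is read from it.

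RNA-binding proteins of related function showed a like picture. Of 28 genes for AU-rich element and other 3' end binding proteins 18 (64.3%) had an interval at an end, with Hnrnpdl (476.75, shared with Enoph1), Hnrnpab (471.23), Igf2bp2 (288.99) and Msi2 (227.63) first. Elavl1, whose product HuR stabilises AU-rich messages, had 226.63, shared with Ccl25. Elavl2, Elavl3, Khsrp and Tial1 had none at an end, though 1 interval overlapped the record of Elavl2. Of 18 listed KH domain genes other than Mex3, 10 (55.6%) had an interval at an end, with Hnrnpk (699.97, shared with Rmi1), Fubp1 (343.92, shared with Dnajb4), Khdrbs1 (322.28) and Sf1 (220.51) first, and Khdrbs2, Khdrbs3, Fmr1 and Fxr1 without. The Pcbp and Igf2bp genes and Khsrp are not among the 18, as they were counted with the 28. No gene of any of these 5 lists reached the score of Mex3b or Zfp36l2. Mex3b and Zfp36l2 were chosen with their scores already known to be near the top of the ARID4B list, so nothing is read from this.

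Immediate early genes, the class to which Zfp36 belongs, mostly had an interval at an end. Of 32 such genes 23 (71.9%, 95% exact interval 53.3 to 86.3%) had an interval at an end, with a median score of 159. Jund (780.89, shared with Iqcn), Jun (617.69), Ier5l (554.11) and Ier5 (538.93) came first, while Fos had 87.78 (rank 5264) and Fosb 74.29 (rank 6264). Egr2, Ier3, Atf3 and Dusp2 had none at an end, though 1 interval overlapped the record of Egr2. With the midpoint required in the window the count was 17 of 32 (53.1%), below the 18 of 28 (64.3%) of the AU-rich element and 3' end binding genes, and with scores above the median it was 16 of 32, level with 11 of 22 for the CCR4-NOT, PAN and adaptor genes. Messages known as targets of ZFP36 proteins had an interval at 6 of 22 (27.3%), against 27.1% of all protein-coding genes. They were Vegfa (397.09), Notch1 (213.47), Myc (92.28), Plk3 (80.06, shared with Tctex1d4), Lats2 (75.38) and Ccnd1 (70.64), and the cytokine genes Tnf, Csf2, Il2 and Il3 had none. Shares are set beside all protein-coding genes, expressed in testis or not, and nothing particular to a list is read from them. The lists were chosen with earlier results of these data known, and the exact interval is over genes of a single library. That interval is therefore no test. Btg2, Myc and Ier3 each stand in 2 lists.

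**Figure D5:**
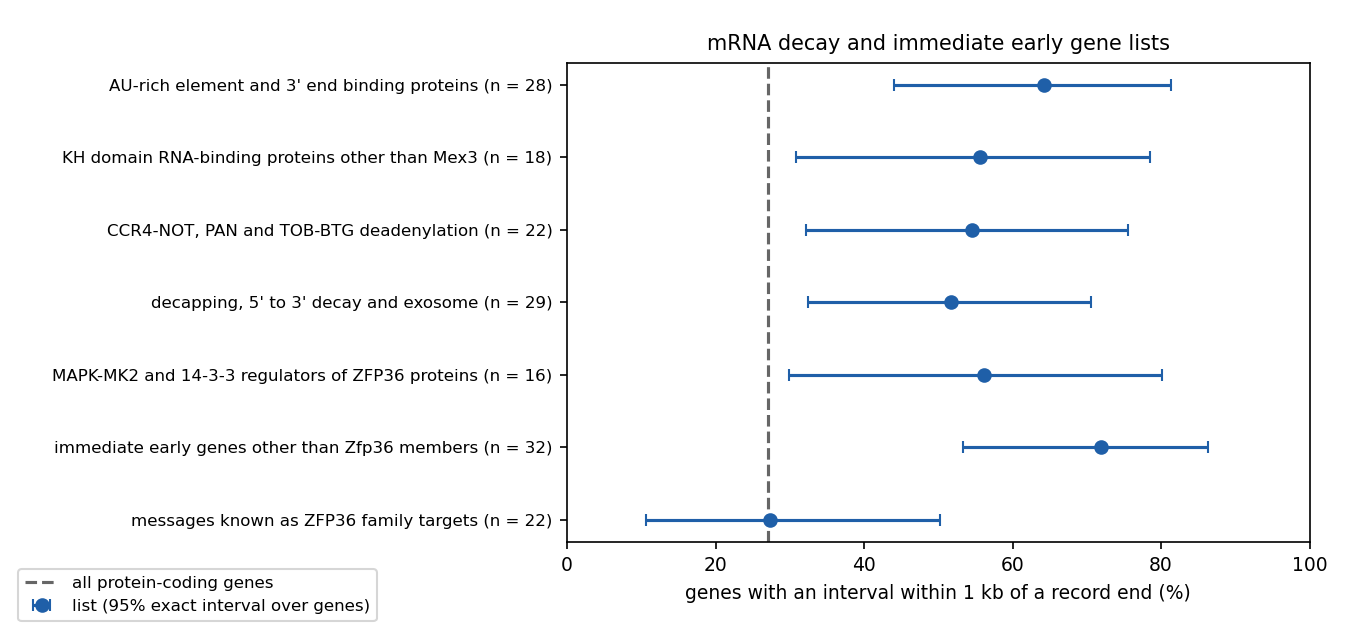
Percentage of genes in each list with an interval within 1 kb of a record end, with 95% exact (Clopper-Pearson) intervals over genes, beside 27.1% of all protein-coding genes (dashed line). Immediate early genes stand at 71.9% and known ZFP36 targets lie on the line at 27.3%.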

How the data were processed

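Per the submitters' processing notes, the tools were BWA and MACS and the build mm9, whereas the name of the deposited list says mm10. No versions or parameters are given. The list, as the authors deposited it, has 6632 intervals with a score each. Its name speaks of p-values, but no score is below 70.02, so scores served only to rank and describe. As GRCm38 positions, 80.3% of intervals were within 1 kb of a protein-coding record end, against 9.54 and 9.94% after a move of 200 kb down or up, so GRCm38 was used. Records, starts and strands are from RefSeq (GRCm38.p6). Input values were not analysed here.

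An interval counted for a gene when it overlapped by 1 bp or more the 1 kb either side of a record end. Members, lists and motifs were chosen with earlier results of these data known. Named genes are the members, Zfp36l3, genes whose ends nearby intervals reach, the 4 best and up to 4 genes without an interval of each list, and the 3 intervals most like the best of each family; Elavl1, Fos, Fosb, Vps13, Vps37, Lats2 and Ccnd1 were added after their values were seen. Cyr61 and Ctgf were matched as Ccn1 and Ccn2. The symbol Ski2 had no match, while Skiv2l was matched and counted in the same list. Alternatives were other windows, midpoints, higher scores, ranks by width and merged intervals. The counting steps were tested on simulated data. Python 3.11.15, NumPy 2.4.6, pandas 2.3.3, SciPy 1.17.1 and matplotlib 3.10.9 were used.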

Additional observations from a re-analysis of the deposited data

How the results depend on the processing

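All 7 genes kept an interval with windows of 5 kb, anywhere in the record or within 1 kb, and after intervals at most 500 bp apart were merged, an alternative added after the data were seen. With windows of 500 bp Mex3c was lost (6 of 7), with the midpoint required in the window Mex3c and Zfp36l1 (5 of 7), and with scores above the median Mex3a (6 of 7). The share of all protein-coding genes was 25.3% with 500 bp, 32.1% with 5 kb, 24.7% with midpoints, 14.8% with scores above the median, 30.7% over the record and 27.9% for genes with a curated transcript, against 27.1% as reported. With scores above the median, 15 intervals lay within 50 kb of the genes, and the lists had 6 of 18 for KH domain genes, 5 of 16 for regulators, 9 of 29 for decapping and exosome genes and 2 of 22 for known targets. The other 38 of 42 list alternatives stayed within 1.5 times. Families of 4 with an interval at every member numbered 0 with 500 bp, with midpoints and with scores above the median, and 2 anywhere in the record. The rank by score divided by width was 946 for Zfp36, 3608 for Zfp36l1, 481 for Mex3d and 2966 for Mex3a, and the best interval in the record ranked 302 for Zfp36l1 and 1904 for Mex3a. By nearest edge, the best interval lay at the start of Zfp36 and Mex3b, 42 bp from that of Zfp36l1 and 431 bp from that of Mex3a. The causes of these changes were not tested. No paired analysis was possible because there is 1 library of each kind. Depth is unknown, so a gene without an interval is not shown to lack ARID4B.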
